A study of Mus musculus with 37 samples.

Results

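The genes described here are 5 members of the MS4A family of the mouse, Ms4a4b, Ms4a4c, Ms4a6b, Ms4a6c and Ms4a6d, out of 53700 genes counted in each of 37 bulk RNA-seq libraries of uterine natural killer (uNK) cells. They were found by symbol, from the Ensembl identifiers of the files. They were picked with results of these data known, because Ms4a6b was higher in NKG2A+ than in uneducated cells and higher in NKG2A KO than in wild-type cells. The measures of those contrasts are therefore given as a description, with no test.

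The cells came from the pregnant uterus of C57BL6 mice at gestation day 9.5 to 10.5 and were sorted as live CD45+ NKp46+ cells without lineage markers such as CD3, CD4 and CD8 or high CD11b. They were then separated by the inhibitory receptors NKG2A and Ly49C/I, which bind self MHC class I molecules and after which the study calls NK cells educated or uneducated. WT mice gave 9 libraries of uneducated cells (neither receptor), 9 of NKG2A+ Ly49C/I- cells and 6 of Ly49C/I+ NKG2A- cells. Mice labelled NKG2A KO gave 8 libraries of uneducated and 5 of Ly49C/I+ cells. The sources used here do not say how the knockout was made. Because the KO cells have no NKG2A on their surface, cells that would have carried it could not be set apart from the uneducated or the Ly49C/I+ cells of these mice, and the antibody listed for NKG2A also binds NKG2C and NKG2E. No source used here says whether libraries came from separate mice, so p-values measure the spread between libraries, which may be technical.

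MS4A proteins are small tetraspan membrane proteins with both ends in the cytoplasm, and most of their genes lie side by side in the genome. The best known are Ms4a1, which encodes the B cell antigen CD20, and Ms4a2, which encodes the beta chain of the high-affinity IgE receptor of mast cells and basophils. Ms4a4b is known from T cells, where its protein associates with the co-stimulatory receptor GITR, whereas Ms4a6c, Ms4a6d, Ms4a4a and Ms4a7 are best known from monocytes and macrophages.

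In GENCODE M21 (GRCm38), all 5 genes lie on chromosome 19, within a run of 19 Ms4a genes that spans 678.6 kb. Ms4a4c (ENSMUSG00000024675, chr19:11404770-11427246), Ms4a4b (ENSMUSG00000056290, chr19:11443553-11467055), Ms4a6c (ENSMUSG00000079419, chr19:11469366-11482192) and Ms4a6b (ENSMUSG00000024677, chr19:11516512-11531256) follow each other on the plus strand, and Ms4a6d (ENSMUSG00000024679, chr19:11586604-11604849) lies beyond them on the minus strand. Their longest coding sequences hold 226 codons in Ms4a4b and in Ms4a4c, 244 in Ms4a6b, 217 in Ms4a6c and 247 in Ms4a6d. The sequences fall into an Ms4a4 pair and an Ms4a6 trio. Ms4a4b and Ms4a4c were identical at 622 of 678 aligned coding bases (91.7%), Ms4a6b and Ms4a6c at 85% and Ms4a6b and Ms4a6d at 79.6%. Between the pair and the trio the identity was 42.9% to 50.2%. The 90 coding bases below, the most alike of the 8 stretches of this length that align without a gap inside 1 exon of each of the 5 genes, are shown because they let a reader see how much of a read's length the members share. Capitals mark bases that differ from Ms4a6b, and all are written in the direction of the transcript.
Ms4a6b (exon 3, chr19:11520389-11520478, plus strand): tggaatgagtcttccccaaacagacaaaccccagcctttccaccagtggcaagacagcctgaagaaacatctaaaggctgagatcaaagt
Ms4a6c (exon 2, chr19:11471155-11471244, plus strand): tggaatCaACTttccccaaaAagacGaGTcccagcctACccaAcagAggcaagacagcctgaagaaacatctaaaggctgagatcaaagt
Ms4a6d (exon 2, chr19:11603153-11603242, minus strand): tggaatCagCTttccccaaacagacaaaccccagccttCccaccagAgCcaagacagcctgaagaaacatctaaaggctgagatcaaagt
Ms4a4b (exon 2, chr19:11449957-11450046, plus strand): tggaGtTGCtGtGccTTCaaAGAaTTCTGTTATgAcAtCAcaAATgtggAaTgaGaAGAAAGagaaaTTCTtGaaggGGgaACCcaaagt
Ms4a4c (exon 2, chr19:11414855-11414944, plus strand): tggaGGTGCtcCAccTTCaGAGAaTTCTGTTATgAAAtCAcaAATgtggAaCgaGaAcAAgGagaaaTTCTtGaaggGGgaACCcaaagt
In this stretch Ms4a6d differed from Ms4a6b at 6 bases and Ms4a6c at 12, whereas Ms4a4b and Ms4a4c differed at 47 and 48. The longest run of identical coding bases was 127 between Ms4a4b and Ms4a4c and 81 between Ms4a6b and Ms4a6d. Of all 50-base stretches of a gene's transcripts, 2.40% in Ms4a4b, 8.19% in Ms4a4c, 3.57% in Ms4a6b and 2.54% in Ms4a6d also occur in transcripts of other genes. In Ms4a6c the share was 51.4%, shared with BE692007, a gene that overlaps it on the other strand, and with Ms4a6b and Prdm11. No source used here says whether the authors counted by strand, so the Ms4a6c counts are uncertain.

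Each library held 13287163 to 18875033 reads on genes (median 17273311). Levels below are CPM, the count of a gene relative to the total of its library, with totals scaled by TMM over all 37 libraries. The labels held for both receptors: Klrc1, which encodes NKG2A, was at 495 to 753 CPM in NKG2A+ libraries and at most at 13.9 CPM elsewhere, and Klra9, which encodes Ly49I, was at 452 to 731 CPM in WT and 737 to 1137 CPM in KO Ly49C/I+ libraries against at most 124 CPM in all others. The low Klrc1 level in WT cells sorted as NKG2A- leaves this gene no check of the knockout. The 9 NK markers summed to between 15486 and 23051 CPM. WT uneducated library 5 stood apart from its own group with counts for 13990 genes, against a group median of 15933. Some libraries of other groups were about as low: WT NKG2A+ library 9 (13982 genes), WT Ly49C/I+ library 5 (14038) and KO Ly49C/I+ library 5 (14197). Some results that rest on WT uneducated library 5 are also given without it.

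Ms4a6b was the member with the clearest order of groups. Its level was lowest in WT uneducated cells, with a lowest value of 53.2, a median of 68.8 and a highest of 91.1 CPM over 9 libraries. NKG2A KO uneducated cells followed with 80.6, 98.7 and 153 CPM (8 libraries) and WT Ly49C/I+ cells with 93.9, 125 and 139 CPM (6 libraries). The 2 remaining groups had higher medians: WT NKG2A+ cells ranged from 148 to 209 CPM with a median of 166 (9 libraries). Their lowest library, at 148 CPM, lay below the highest KO uneducated library, at 153 CPM. The 5 KO Ly49C/I+ libraries were at 193, 185, 164, 178 and 160 CPM. Neighbours in this order overlapped, except that every WT NKG2A+ library lay above every WT Ly49C/I+ library.

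**Figure D1:**
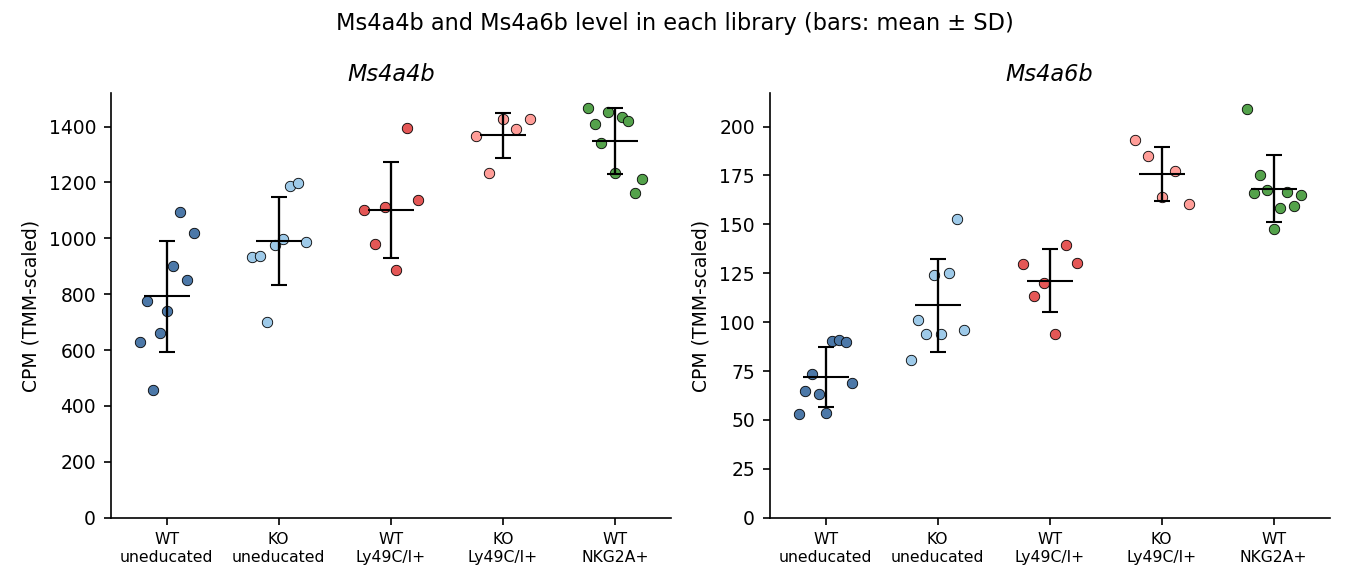
Level of Ms4a4b (left) and Ms4a6b (right) in CPM in each of the 37 libraries, by group; each point is 1 library and the bars give mean ± SD. The WT uneducated libraries have the lowest mean for both genes, and the WT NKG2A+ and KO Ly49C/I+ libraries have the highest means, with Ms4a6b at 148 to 209 and 160 to 193 CPM.

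Ms4a6b rose with Ly49C/I in both genotypes. Ly49C/I+ cells of WT mice averaged 121 ± 16.1 CPM (SD, n = 6) where uneducated cells averaged 72.0 ± 15.2 CPM (SD, n = 9), and all 6 Ly49C/I+ libraries lay above all 9 uneducated ones. The log2 fold change was 0.77 (SE 0.134, edgeR quasi-likelihood test, adjusted p = 0.00257), and 0.73 without WT uneducated library 5 (adjusted p = 0.00239). The KO averages were 176 ± 13.8 CPM (SD, n = 5) for Ly49C/I+ and 109 ± 23.6 CPM (SD, n = 8) for uneducated cells, again without overlap, with a log2 fold change of 0.70 (SE 0.130, edgeR adjusted p = 0.00219). With offsets for GC content and gene length, a kind of correction the study's own analysis made too, edgeR still called Ms4a6b in WT (adjusted p = 0.00167) and KO mice (adjusted p = 0.00680). The Ly49C/I effect on Ms4a6b in KO less that in WT mice was -0.05 on the log2 scale (95% interval -0.45 to 0.34, edgeR adjusted p = 0.999), an interval that holds a larger effect in either genotype. In that test 0 of 9322 genes (0%) were called by the quasi-likelihood test, 407 had an unadjusted p under 0.05, and the likelihood ratio test and DESeq2 called 1 gene each.

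Of the 5 members, 3 passed the filter of 5 CPM in at least 0.5 of the libraries in each of these comparisons (Ms4a4b, Ms4a4c and Ms4a6b), and 2 of them, Ms4a4b and Ms4a6b, were called higher in WT as in KO mice. Over all genes tested, 4.50% were called higher in Ly49C/I+ cells of WT mice (9.20% in either direction) and 7.34% in those of KO mice (16.3% in either direction). Groups that did not overlap, with Ly49C/I+ cells higher, were seen in 1.02% and 1.92% of genes. The median log2 fold change of the 3 members tested was 0.56 in WT and 0.47 in KO mice, beside 0.01 and 0.02 over all genes tested. The WT median is the value of Ms4a4c, which was 0.39 without WT uneducated library 5. These comparisons are not independent of how the genes were picked, because the same uneducated and Ly49C/I+ libraries enter the contrasts used for that.

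NKG2A+ and Ly49C/I+ cells, each with 1 of the receptors, were compared directly in WT mice. Ms4a6b was higher in NKG2A+ cells, at 168 ± 17.1 CPM (SD, n = 9) beside the 121 CPM given above, and all 9 NKG2A+ libraries lay above all 6 Ly49C/I+ ones. The log2 fold change was 0.46 (SE 0.0927, edgeR adjusted p = 0.0113). With the GC and length offsets it was 0.28 and no longer called (edgeR adjusted p = 0.115). Among the 4 members that passed the filter here, Ms4a6b was the only one called, where 1.31% of all genes were called higher in NKG2A+ cells (2.73% in either direction) and 0.591% had groups that did not overlap, with NKG2A+ cells higher. The NKG2A+ libraries are those on which the genes were picked.

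Ms4a4b had by far the highest level of the members. Per kb of exon, its mean level in NKG2A+ cells was 154 CPM against 37.5 for Ms4a6b, 20.3 for Ms4a4c, 2.63 for Ms4a6c and 2.51 for Ms4a6d. The order was the same per kb of the longest transcript except that Ms4a6d, at 3.07, then stood above Ms4a6c, at 2.93. Ms4a4b accounted for 86.3% to 88.6% of the reads of the 5 genes, as group means. In WT uneducated cells its lowest value was 458, its median 776 and its highest 1095 CPM (9 libraries). In NKG2A KO uneducated cells these were 700, 982 and 1199 CPM (8 libraries) and in WT Ly49C/I+ cells 888, 1107 and 1397 CPM (6 libraries). The highest levels were again those of WT NKG2A+ cells, at 1161 to 1468 CPM with a median of 1410 (9 libraries), and of KO Ly49C/I+ cells. The 5 KO Ly49C/I+ libraries were at 1364, 1232, 1427, 1393 and 1426 CPM. All neighbours in the order of Ms4a4b levels overlapped.

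Ms4a4b was higher in Ly49C/I+ than in uneducated cells. In WT mice the log2 fold change was 0.49 (SE 0.149, edgeR adjusted p = 0.0450), and 4 of 6 Ly49C/I+ libraries lay above all 9 uneducated ones. This call was at the threshold: it was lost with the GC and length offsets (edgeR adjusted p = 0.0803), and without any 1 of WT uneducated libraries 1, 2, 3, 4 and 8 or WT Ly49C/I+ libraries 1, 2, 4, 7 and 8 (adjusted p = 0.0550 to 0.137), though not without WT uneducated library 5 (0.0426). Over all 24 alternatives the log2 fold change lay between 0.41 and 0.55. In NKG2A KO mice the log2 fold change was 0.47 (SE 0.0997, edgeR adjusted p = 0.00475), and all 5 Ly49C/I+ libraries lay above all 8 uneducated ones. There too the offsets ended the call, at a log2 fold change of 0.23 (edgeR adjusted p = 0.164). The effect differed between the genotypes by -0.01 (95% interval -0.41 to 0.39). Between NKG2A+ and Ly49C/I+ cells of WT mice the log2 fold change was 0.28 (95% interval 0.11 to 0.45), with 5 of 9 NKG2A+ libraries above all Ly49C/I+ ones and an edgeR adjusted p of 0.0711. The likelihood ratio test (adjusted p = 0.0494) and DESeq2 (adjusted p = 0.0199) called this difference, and so did the quasi-likelihood test without WT Ly49C/I+ library 7 (adjusted p = 0.0225).

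**Figure D2:**
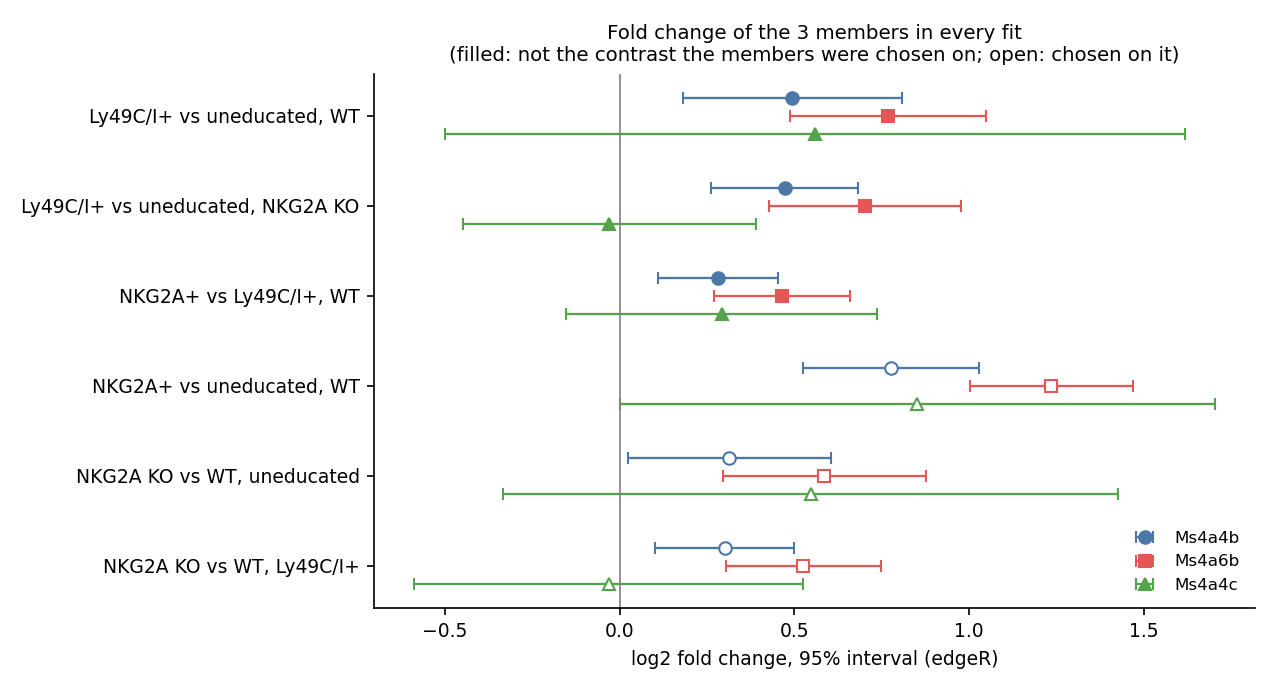
Log2 fold change (edgeR; bars, 95% interval) of Ms4a4b, Ms4a6b and Ms4a4c in 6 comparisons; filled symbols are comparisons that were not used to pick the genes, open symbols those that were. In each of the 6, Ms4a6b has the highest value (0.46 to 1.24) and Ms4a4c the widest interval.

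In the contrasts used to pick the genes, Ms4a6b was 1.24 higher on the log2 scale in NKG2A+ than in uneducated WT cells (95% interval 1.00 to 1.47), and Ms4a4b was 0.78 higher. All 9 NKG2A+ libraries lay above all 9 uneducated ones for both genes. Ms4a4c was 0.85 higher (0.68 without WT uneducated library 5), with overlap. Of all genes, 15.0% were called in this comparison and 1.18% had groups that did not overlap, with NKG2A+ cells higher. Between NKG2A KO and WT uneducated cells the log2 differences were 0.59 for Ms4a6b, 0.31 for Ms4a4b and 0.55 for Ms4a4c, all with overlap. Without WT uneducated library 5 the Ms4a4c difference was 0.37. For Ms4a6b, 7 of 8 KO libraries lay above all WT libraries. Between KO and WT Ly49C/I+ cells the log2 differences were 0.53 for Ms4a6b, without overlap (as in 0.867% of genes), and 0.30 for Ms4a4b and -0.03 for Ms4a4c, with overlap. No gene of either KO comparison was called by edgeR's quasi-likelihood test (0% of 9288 and of 9344 genes), while 619 and 992 genes had an unadjusted p under 0.05. The likelihood ratio test called 1 and 60 genes, and DESeq2 called 1 and 118. As in all comparisons of bulk libraries here, fewer cells that use a gene and less RNA per cell cannot be told apart.

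Ms4a4c, the close relative of Ms4a4b in sequence, was far lower and varied more. In WT uneducated cells its lowest value was 0.0638, its median 19.4 and its highest 35.1 CPM, where the lowest is a single read in library 5, and in KO uneducated cells it ranged from 20.7 to 38.4 CPM with a median of 26.9. WT Ly49C/I+ cells were at 17.5 to 42.4 CPM with a median of 27.0, and WT NKG2A+ cells at 23.0 to 49.8 CPM with a median of 36.4. The 5 KO Ly49C/I+ libraries were at 31.0, 16.7, 39.5, 27.5 and 28.0 CPM. All groups overlapped, and no test called the gene. The log2 fold change of Ly49C/I+ against uneducated cells was 0.56 in WT mice (95% interval -0.50 to 1.62, edgeR adjusted p = 0.543) and 0.39 without WT uneducated library 5 (adjusted p = 0.251). In KO mice it was -0.03 (95% interval -0.45 to 0.39, edgeR adjusted p = 0.941), and between NKG2A+ and Ly49C/I+ cells it was 0.29 (95% interval -0.15 to 0.74, edgeR adjusted p = 0.50). The KO effect less the WT effect was -0.57 (95% interval -1.79 to 0.65, edgeR adjusted p = 0.999), and -0.40 without WT uneducated library 5.

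Ms4a6c and Ms4a6d were near the limit of what these libraries resolve. The group means of Ms4a6c lay between 2.80 CPM in KO uneducated and 5.39 CPM in WT NKG2A+ cells, and those of Ms4a6d between 0.998 CPM in KO Ly49C/I+ and 4.35 CPM in WT NKG2A+ cells. In 37 libraries Ms4a6c counts ran from 2 to 252 reads. Ms4a6d had no read in 6 libraries, 2 each of WT uneducated, WT Ly49C/I+ and KO Ly49C/I+ cells, and at most 166 reads. All groups of both genes overlapped. The same WT uneducated library 5 that had 1 read of Ms4a4c had no read of Ms4a6d and the highest Ms4a6c level of all libraries, 16.1 CPM, whereas the other 8 libraries of that group were at 0.53 to 4.30 CPM.

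**Figure D3:**
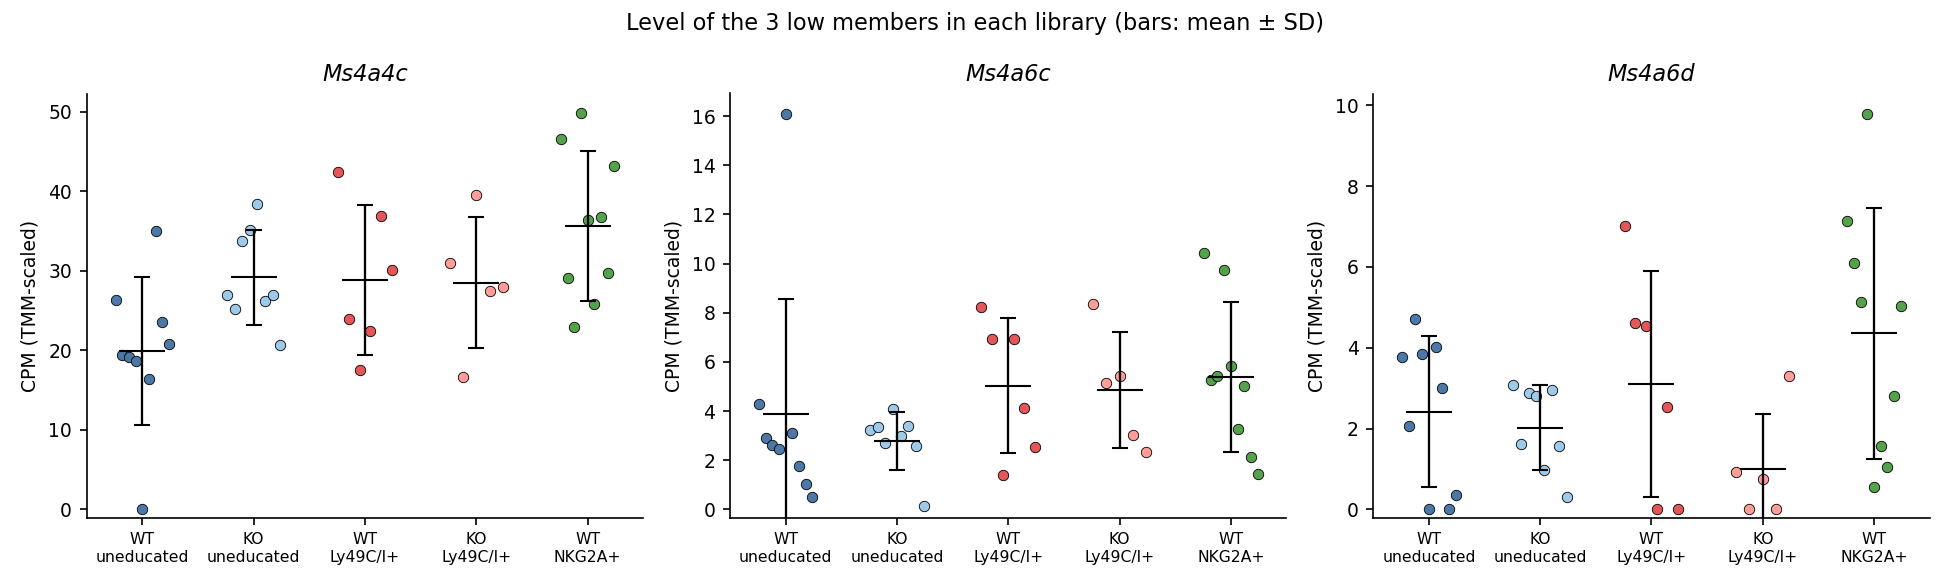
Level of Ms4a4c, Ms4a6c and Ms4a6d in CPM in each of the 37 libraries, by group; each point is 1 library and the bars give mean ± SD, cut at the axis where they would pass below 0. The groups overlap for all 3 genes, and 1 WT uneducated library has the lowest Ms4a4c (0.0638 CPM) and the highest Ms4a6c level (16.1 CPM).

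Where these 2 genes fell below the filter, each was tested singly by exact permutation (two-sided) of its log2(CPM + 1) values, a scale that understates changes of low genes. Ms4a6c differed by 0.52 between Ly49C/I+ and uneducated cells in WT (exact permutation p = 0.292) and by 0.63 in KO mice (exact permutation p = 0.107). For Ms4a6d these differences were 0.14 (exact permutation p = 0.774) and -0.73 (exact permutation p = 0.0995), and between NKG2A+ and Ly49C/I+ cells 0.53 (exact permutation p = 0.373). Ms4a6c passed the filter in that last comparison, with a log2 fold change of 0.09 (95% interval -0.87 to 1.04, edgeR adjusted p = 0.946). None of these passed the threshold, and the smaller WT difference of Ms4a6d turned to -0.02 with a pseudocount of 0.1.

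Both genes are best known from monocytes and macrophages, so the levels of such markers are given beside them. Of 13 markers listed for these cells, 10 had a median of at least 1 CPM in WT uneducated, 12 in WT NKG2A+, 8 in WT Ly49C/I+, 8 in KO uneducated and 7 in KO Ly49C/I+ cells. Their summed level was 686 to 834 CPM, 664 to 1293, 776 to 1334, 576 to 818 and 731 to 1123 CPM in these groups, most of it Ccr2, which NK cells can also express. Ly6c2, a monocyte gene also found in lymphocytes, had group medians in the same order as the Ms4a6b means, at 66.8 CPM in WT uneducated, 112 in KO uneducated, 134 in WT Ly49C/I+, 182 in WT NKG2A+ and 311 CPM in KO Ly49C/I+ cells. Other markers of the list did not follow that order. Medians in these groups were 19.8, 19.9, 13.0, 14.4 and 13.1 CPM for Cd68. They were 17.0, 13.8, 12.0, 17.2 and 4.43 CPM for Cd14, and 4.32, 3.69, 0.029, 2.37 and 0 CPM for Csf1r. The lysozyme gene Lyz2 varied widely, with medians of 18.1, 27.3, 31.1, 43.4 and 8.30 CPM in these groups and a highest value of 292 CPM in WT Ly49C/I+ and 173 CPM in WT NKG2A+ cells. Cd14 reached 65.3 CPM in WT NKG2A+ and C1qb 44.9 CPM in WT Ly49C/I+ cells. Csf1r, the receptor for macrophage growth factor, was at 0 to 19.7 CPM, with group medians of at most 4.32, and C1qa, a complement gene of tissue macrophages, at 0 to 7.90 CPM, with group medians of at most 2.77. The part of such cells in the levels of the 5 genes was not tested.

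Ms4a4b and Ms4a6b moved together across libraries. On log2(CPM + 1) their Pearson r over 37 libraries was 0.87, and 0.54 once each group's mean was taken off, given as a description of libraries that share groups and gates. Over the 37 libraries, of 9286 genes, 10 had a higher r with Ms4a6b than Ms4a4b did, and 20 had a higher r with Ms4a4b than Ms4a6b did. These ranks keep the group differences, which took part in the choice of the genes. With group means taken off, the highest r was 0.68 with Ms4a6b (Tmem59) and 0.84 with Ms4a4b (Klrk1). Ms4a4c was less like both, with r = 0.41 with Ms4a4b and 0.51 with Ms4a6b. The proportion of Ms4a6b to Ms4a4b was not tested, and the range of WT uneducated libraries (6.76% to 16.1%) held those of all other groups. Ms4a6b CPM came to 9.48% ± 2.76 (SD, n = 9) of the Ms4a4b CPM in WT uneducated, 11.0% ± 1.76 (SD, n = 8) in KO uneducated, 11.0% ± 0.697 (SD, n = 6) in WT Ly49C/I+, 12.5% ± 1.15 (SD, n = 9) in WT NKG2A+ and 12.9% ± 1.64 (SD, n = 5) in KO Ly49C/I+ cells.

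**Figure D4:**
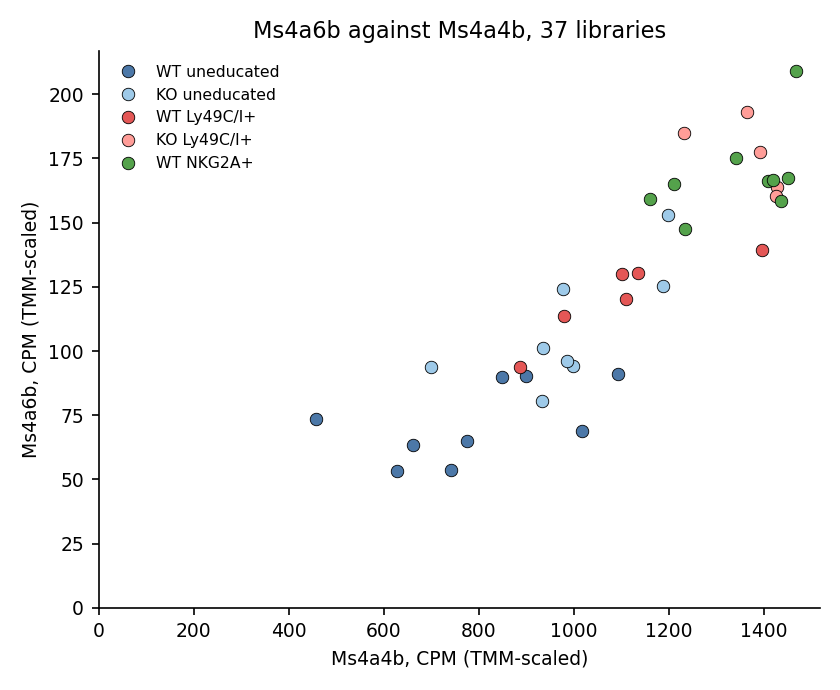
Ms4a6b against Ms4a4b, both in CPM, with 1 point for each of the 37 libraries, coloured by group. The lowest libraries on both axes are WT uneducated ones and the highest are WT NKG2A+ and KO Ly49C/I+ ones (Pearson r = 0.87 on the log2(CPM + 1) scale).

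The genes whose pattern over the 37 libraries was most like that of Ms4a4b were Klrk1 (r = 0.94), which encodes the activating receptor NKG2D, the interferon-inducible gene Ifi209 (r = 0.92) and the GTPase gene Gimap6 (r = 0.91). With group means taken off they were Klrk1 (r = 0.84), Klre1 (r = 0.83) and Klrb1f (r = 0.81), but by rank correlation Ifi209 (rho = 0.84), Txnip (rho = 0.78) and Ifi47 (rho = 0.75), and without WT uneducated library 5 Ifi209 came first by Pearson r too (r = 0.86). For Ms4a6b they were Gimap3 (r = 0.90), Ncr1 (r = 0.90), which encodes the sorting marker NKp46, and Hsd11b1 (r = 0.90), an enzyme of glucocorticoid activation. With group means taken off they were Tmem59, Trim12a and Dglucy (r = 0.67 to 0.68), and without WT uneducated library 5 Hsd11b1, Ccl4 and Trim12a (r = 0.66 to 0.70). By rank correlation over the 37 libraries the first place went to Gimap4 for Ms4a6b (rho = 0.93) and stayed with Klrk1 for Ms4a4b (rho = 0.90). Without WT uneducated library 5 the first 3 over the libraries were Klrk1, Ifi209 and Epsti1 for Ms4a4b and Hsd11b1, Gimap3 and Gimap4 for Ms4a6b. For Ms4a4c the nearest genes were Gpc1, Lbr and Ubr7 (r = 0.87 to 0.89), which rested on WT uneducated library 5: without it they were Syap1, Aaed1 and Gramd3 (r = 0.61 to 0.64).

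Because the members neighbour each other, genes around the cluster were counted too. Of the 71 other genes within 500 kb of it, 15 or 16 passed the filter in each comparison. None was called between Ly49C/I+ and uneducated cells of WT mice or between NKG2A+ and Ly49C/I+ cells by edgeR's quasi-likelihood test, with median log2 fold changes of -0.24 and 0.01. Of all genes tested, 9.20% and 2.73% were called in these 2 comparisons. An unadjusted p under 0.05 was seen in 5 of 15 and 2 of 15 neighbours, beside 24.6% and 18.4% of all genes tested. In KO mice 2 were called higher and 2 lower in Ly49C/I+ cells (Ccdc86, Ddb1, Cpsf7 and AW112010), 4 of 16 beside 16.3% of all genes.

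Sequences before the RefSeq starts of Ms4a4b and Ms4a6b are shown because these genes moved together while their coding sequences do not resemble each other. They come from RefSeq's promoter table (GRCm38.p6), which held 4 of the 5 members, with no entry for Ms4a6d. They are the bases before the RefSeq start on the plus strand, cut where another annotated exon of the gene begins. In Ms4a6b and Ms4a4c these bases lie inside the gene span given above, not before its first base. Capitals mark a match to one of the motifs searched, of which the stretch of Ms4a6b holds none.
Ms4a4b (chr19:11443308-11443552): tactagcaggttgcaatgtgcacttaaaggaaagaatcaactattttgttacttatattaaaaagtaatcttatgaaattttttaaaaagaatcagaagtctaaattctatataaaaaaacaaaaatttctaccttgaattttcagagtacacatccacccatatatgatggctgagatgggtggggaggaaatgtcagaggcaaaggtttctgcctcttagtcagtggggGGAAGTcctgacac
Ms4a6b (chr19:11518309-11518452): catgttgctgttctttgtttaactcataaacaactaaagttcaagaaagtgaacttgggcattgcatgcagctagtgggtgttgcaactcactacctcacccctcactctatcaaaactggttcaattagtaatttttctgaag
The 5 motifs were searched on both strands of the 250 bases before each start: the interferon-stimulated element (GAAA, any 2 bases, GAAA), the gamma-activated site TTCNNNGAA, the T-box site AGGTGTGA, the Runx site TGTGGT and the Ets core GGAAGT. The first 3 had no match in any of the 4 genes, and are found in 2.98%, 7.02% and 1.12% of 32841 promoters. The Ets letters, in 19.7% of promoters, matched once in Ms4a4b, Ms4a4c and Ms4a6c, at 19, 15 and 16 bases before the start. In Ms4a6b they matched at 2 places, at 85 and 43 bases before it. Both lie in the part not printed, past the start of an annotated Ms4a6b exon. The Runx letters, in 14% of promoters, matched once in Ms4a4c. Aligned with each other, the 250 bases were identical at 67.4% of aligned bases in Ms4a4b and Ms4a4c, at 81.4% in Ms4a6b and Ms4a6c, and at 44.1% in Ms4a4b and Ms4a6b. A match of letters is a description of the sequence and does not show that a factor binds there.

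The other genes of the family were mostly silent in these cells. Of 16 with a row in the files, the 19-gene cluster's others and the related Tmem176a and Tmem176b of chromosome 6, 6 had no read in any library (Ms4a5, Ms4a10, Ms4a12, Ms4a13, Ms4a14 and Ms4a18). A further 5 had a few reads (Ms4a1, Ms4a2, Ms4a3, Ms4a4d and Ms4a8a). Ms4a1 was counted in 2 of 37 libraries, at up to 2.76 CPM, and Ms4a2 in 2, at up to 1.59 CPM. Ms4a7, Ms4a15 and Ms4a4a were low and passed the filter in no comparison. Their highest group medians were 1.49 CPM for Ms4a7 (WT uneducated), 2.79 for Ms4a15 (WT NKG2A+) and 1.94 for Ms4a4a (WT Ly49C/I+), and all of their groups overlapped.

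Tmem176a and Tmem176b, which encode related tetraspan proteins of intracellular membranes known from myeloid cells and type 3 innate lymphoid cells, were the exceptions. In WT NKG2A+ cells Tmem176a ranged from 16.2 to 71.2 CPM with a median of 21.7 and Tmem176b from 22.9 to 127 CPM with a median of 39.6. In WT Ly49C/I+ cells the ranges were 2.17 to 4.11 and 3.99 to 11.4 CPM, and in WT uneducated cells 0.53 to 10.3 and 4.15 to 17.9 CPM. All NKG2A+ libraries lay above all libraries of both other WT groups. Against Ly49C/I+ cells the log2 fold change of Tmem176b was 3.05 (SE 0.384, edgeR adjusted p = 0.000284). That of Tmem176a was 3.20, given with no test, because this gene passed the filter only through the NKG2A+ libraries, with every Ly49C/I+ library under 5 CPM. Against uneducated cells, in a contrast the genes were picked on, it was 2.64 and 2.33. Neither gene was called between Ly49C/I+ and uneducated cells, where Tmem176a passed the filter in KO mice only. In KO Ly49C/I+ cells library 4 was at 41.1 CPM of Tmem176a and 82.2 CPM of Tmem176b, and the other 4 libraries were at 5.53 to 13.0 and 2.41 to 18.8 CPM. In KO uneducated cells the medians were 11.1 CPM of Tmem176a and 17.8 CPM of Tmem176b, and the libraries overlapped those of WT NKG2A+ and WT uneducated cells for both genes.

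**Figure D5:**
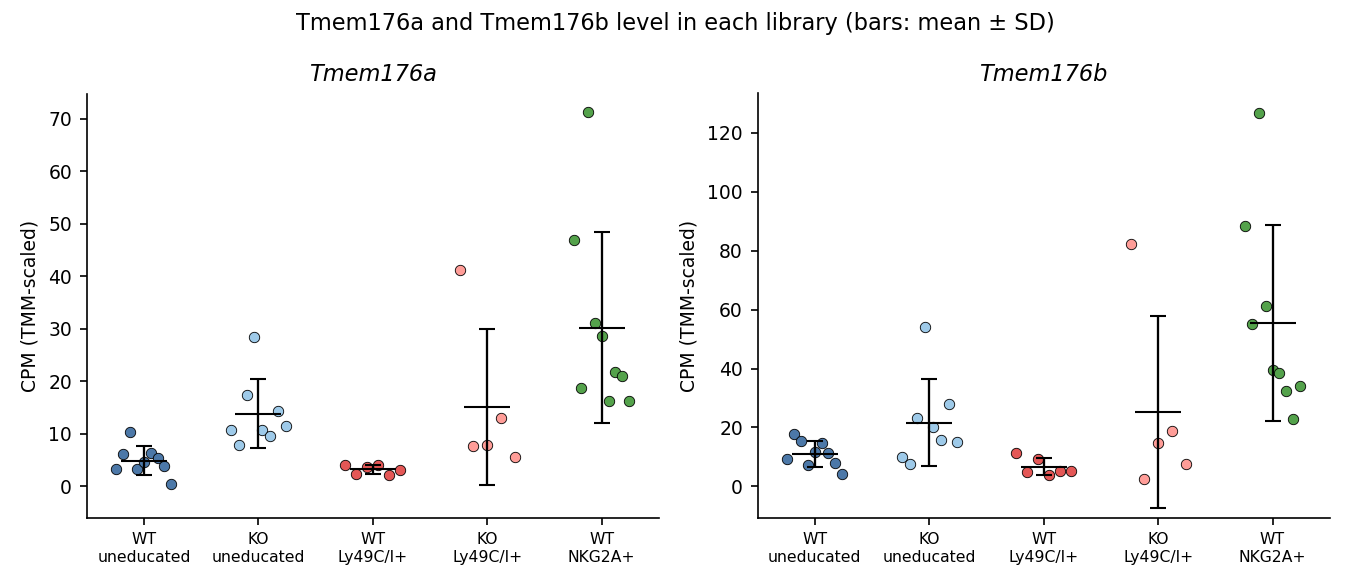
Level of Tmem176a (left) and Tmem176b (right) in CPM in each of the 37 libraries, by group; each point is 1 library and the bars give mean ± SD. All WT NKG2A+ libraries lie above all WT uneducated and WT Ly49C/I+ libraries for both genes, and 1 KO Ly49C/I+ library (41.1 and 82.2 CPM) lies above the other 4.

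Tnfrsf18, which encodes GITR, the known partner of the Ms4a4b protein, was measured beside it. Its mean was 123 ± 27.9 CPM (SD, n = 9) in WT uneducated, 153 ± 20.1 (SD, n = 8) in KO uneducated, 169 ± 26.4 (SD, n = 6) in WT Ly49C/I+, 174 ± 23.7 (SD, n = 9) in WT NKG2A+ and 187 ± 16.0 CPM (SD, n = 5) in KO Ly49C/I+ cells. Neighbours in this order overlapped. It was called higher in Ly49C/I+ than in uneducated cells, with log2 fold changes of 0.47 in WT (SE 0.141, edgeR adjusted p = 0.0422) and 0.29 in KO mice (SE 0.0979, edgeR adjusted p = 0.0488), both close to the threshold. NKG2A+ and Ly49C/I+ cells differed by 0.03 (95% interval -0.19 to 0.26, edgeR adjusted p = 0.915).

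Markers of other cells differed between the same groups. The 5 mast cell and basophil markers summed to 18.5 to 83.8 CPM in WT uneducated, 14.3 to 49.7 in KO uneducated, 6.43 to 21.4 in WT NKG2A+, 4.34 to 15.7 in WT Ly49C/I+ and 0.593 to 11.3 CPM in KO Ly49C/I+ cells, with 3 of the 5 at a median of 0 in each group. The 6 dendritic cell markers, of which H2-Ab1 was the highest, summed to 129 to 349.6 CPM in WT uneducated, 80.2 to 301 in KO uneducated, 31.6 to 159 in WT NKG2A+, 56.9 to 118 in WT Ly49C/I+ and 39.5 to 78.1 CPM in KO Ly49C/I+ cells. H2-Ab1 had medians of 136, 119, 43.9, 42.4 and 22.9 CPM in these groups. Zbtb46 did not follow it, with medians of 19.8, 23.4, 22.3, 43.9 and 28.2 CPM. Flt3, Xcr1, Siglech and Cd209a had group medians of at most 1.61 CPM. The 4 endothelial markers, nearly all of it Pecam1, summed to 207 to 346 CPM in WT uneducated, 178 to 344 in KO uneducated, 121 to 205 in WT NKG2A+, 140.0 to 218 in WT Ly49C/I+ and 128 to 198 CPM in KO Ly49C/I+ cells. Cdh5, Kdr and Plvap, the rest of this list, had a median of 0 in each group. The 4 epithelial and trophoblast markers, led by Epcam, summed to 10.1 to 121 CPM, highest in WT uneducated cells. Epcam had a median of 64.5 CPM in WT uneducated and 23.9 CPM in WT NKG2A+ cells. Krt8 and Krt18 went the other way, with medians of 0.673 and 1.74 CPM in WT uneducated and 2.29 and 3.36 CPM in WT NKG2A+ cells. The 4 neutrophil markers summed to at most 55.5 CPM. The 5 stromal markers, led by Prl8a2, summed to 489, 280.2 and 883 CPM in WT NKG2A+ libraries 1, 3 and 4, and to at most 92.6 CPM in all other libraries. The other 6 NKG2A+ libraries had 2.37 to 53.7 CPM of these markers. Of the T cell markers, Cd3e was at 6.30 to 32.9 CPM in WT NKG2A+ and 1.15 to 8.35 CPM in WT uneducated cells. Medians in these 2 groups were 24.8 and 13.3 CPM for Cd3d. Cd3g and Trac, the other way, had medians of 76.0 and 28.0 CPM in WT NKG2A+ and 83.4 and 29.7 CPM in WT uneducated cells. The sum of 9 markers overlapped in all groups (88.1 to 243 CPM). Among 6 B cell markers only Ighm had a median of at least 1 CPM, at 363 to 659 CPM over all libraries. The part of such cells in the Ms4a4b and Ms4a6b levels was not tested.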

How the data were processed

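Bulk RNA-seq was made with SMART-Seq v4 and Nextera XT, without molecular identifiers, from sorted uNK cells in 37 libraries of 5 groups taken from the labels. Per the study's methods and notes, the authors trimmed reads (Trim Galore 0.5.0, FastQC 0.11.4), aligned them with STAR 2.7.1 to GRCm38, and deposited raw read counts for 53700 Ensembl genes and 5 summary lines; the sources used here do not name the counting program or its strand setting. The authors' own tests used edgeR 3.26.5 in R 3.6.1 and corrected for GC content and length. The summary lines stayed out of all totals: reads on no gene made up 2.69% to 6.83% of a library, ambiguous reads 4.04% to 4.60% and reads not mapped uniquely 11.3% to 13.8%. Counts of duplicate reads from amplification cannot be set apart, so errors here are those between libraries.

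From these counts, symbols, positions and transcripts were added from GENCODE M21 (52147 identifiers had a symbol). Genes that reached 5 CPM in 0.5 or more of a comparison's libraries were tested with edgeR 4.0.16 (quasi-likelihood test, TMM scaling, R 4.3.3), with Benjamini-Hochberg adjustment over all genes tested and a threshold of 0.05. Fits held only the groups compared, without the replicate number as a block. Members below the filter were tested on log2 CPM with a pseudocount of 1. The likelihood ratio test, DESeq2 1.42.0, other scalings and filters, GC and length offsets from splines, fits of all 5 groups, the replicate block and leaving out each library were tried. Steps were tested on simulated data. Sequences were aligned with MAFFT 7.526.

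The 5 genes and the gene and marker lists (NK, B, T, dendritic, mast and basophil, neutrophil, stromal, endothelial, epithelial and trophoblast cells, macrophages and monocytes) were chosen with earlier results of these data known. Genes named are the 5 members, family genes with a median of at least 1 CPM in a group, the 3 genes most like each member, Tnfrsf18 and the receptor genes; the named neighbours, silent family genes and single markers were picked after their values were seen. Numbers of WT Ly49C/I+ libraries come from their descriptions. The description of WT uneducated library 5 repeats that of library 4, and its title was used.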

Additional observations from a re-analysis of the deposited data

Results flagged for a closer look

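Each group of 4 to 10 libraries was searched for a library apart from the rest by Dixon's criterion, for the 5 genes, the reads on genes and the number of genes counted. It marked 8 of 35 groups, where chance marks about 1 in 20. For Ms4a6b it marked WT NKG2A+ library 1, at 209 CPM, with the next library at 175 CPM. Ms4a6c was marked in WT uneducated library 5, at 16.1 CPM with the next at 4.30, and in NKG2A KO uneducated library 8, at 0.120 CPM with the next at 2.59. Ms4a6d was marked in NKG2A KO Ly49C/I+ library 8, at 3.31 CPM with the next at 0.917. Reads on genes were highest, at 18875033, in NKG2A KO uneducated library 1 and lowest, at 13287163, in WT NKG2A+ library 8. The number of genes with a count was low, at 13990, in WT uneducated library 5 and high, at 17006, in NKG2A KO uneducated library 4. WT uneducated library 5 was thus marked for both Ms4a6c and the number of genes counted.

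Ms4a6b differed between cells with the one and the other receptor: its log2 fold change in NKG2A+ against Ly49C/I+ cells of WT mice was 0.46 (edgeR adjusted p = 0.0113, 9 of 9 NKG2A+ libraries above all Ly49C/I+ ones). The difference was no longer called with the GC and length offsets. With these offsets and the replicate block it was 0.26 (edgeR adjusted p = 0.164). The NKG2A+ libraries took part in the choice of the gene.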

How the results depend on the processing

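The WT Ly49C/I+ rise of Ms4a6b passed the threshold in 24 of 24 alternatives and the KO rise in 22 of 22. Its difference between NKG2A+ and Ly49C/I+ cells held in 22 of 24, the exceptions being the GC and length offsets (0.28) and the same with the replicate block (0.26, adjusted p = 0.164, edgeR). The Ms4a4b call in WT mice was lost in 13 of 24, also with no filter (adjusted p = 0.118) and with a filter of 1 CPM (adjusted p = 0.0705), and that in KO mice in 2 of 22, with the offsets and with offsets and block (0.11, adjusted p = 0.331). Depth limits Ms4a6c and Ms4a6d, with as few as 2 reads and 0 reads in a library. The cause of these changes was not tested.

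Counts of genes called moved more. WT Ly49C/I+ against uneducated cells gave 855 genes, 451 without a filter, 1538 with all 5 groups in 1 fit, and 466 (without WT Ly49C/I+ library 7) to 1227 (without WT uneducated library 5) with 1 library left out. The KO comparison gave 1519, 889 without a filter, 759 with the replicate block, 662 with block and offsets, and 967 (without KO Ly49C/I+ library 4) to 1763 with 1 library left out. NKG2A+ against Ly49C/I+ cells gave 254, 442 by the likelihood ratio test, 558 by DESeq2, 104 without a filter, and 147 (without WT Ly49C/I+ library 7) to 306 with 1 library left out. The test of unequal Ly49C/I effects gave 0, and 1 by the likelihood ratio test and by DESeq2, as did KO against WT uneducated cells. KO against WT Ly49C/I+ cells gave 0, 60 by the likelihood ratio test, 118 by DESeq2, 21 with all groups in 1 fit, and 0 to 15 with 1 library left out (15 without WT Ly49C/I+ library 1).

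Values near 0 changed sign. With a pseudocount of 0.1 Ms4a6d in WT Ly49C/I+ against uneducated cells was -0.018. Ms4a6c in NKG2A+ against Ly49C/I+ cells was -0.091 with the offsets and -0.11 to 0.28 with 1 library left out. Ms4a4c in the KO comparison was -0.17 to 0.11, and the unequal effects were -0.077 to 0.067 for Ms4a4b and -0.11 to 0.033 for Ms4a6b.

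No source used here says what libraries of the same number share. The number was not taken as a pairing because not every pair passed 0.1, a rule that does not exclude a pairing. Deviations of same-numbered libraries correlated at over 0.1 in 5 of 6 WT and 2 of 5 KO pairs of Ly49C/I+ and uneducated libraries and in 2 of 6 pairs of NKG2A+ and Ly49C/I+ libraries. In this order, 5 of 6, 3 of 5 and 6 of 6 correlated best with their own number. Their median r was 0.13, 0.03 and 0.08, against -0.02, -0.006 and -0.02 for pairs of other numbers. The main fits, without the block, ignore any such pairing. With the replicate block 987, 759 and 301 genes were called in these comparisons.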
